A study of Mus musculus with 12 samples.

Results

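RNA was compared between kidney cortex of C57BL/6 mice with glomerulonephritis (GN) that drank water, labelled GN_water, and cortex of mice without the disease whose libraries were labelled as captopril-treated, Control_captopril. The libraries were chosen by their count columns, 3 for each group, which is 6 of the 12 libraries of the series. Both groups carry the same kind of sex-linked marker, which is why they were set against each other. GN is an inflammation of the kidney's filtering units, the glomeruli. Here it was induced with horse spleen apoferritin, a foreign protein that provokes immune complexes, at 10 mg into the peritoneum 5 times a week. Lipopolysaccharide (LPS), a bacterial wall component, was added at 100 micrograms 3 times a week, and both ran for 6 weeks. Control mice had saline in the place of these injections, and kidneys of both groups came from week 9. Captopril blocks angiotensin-converting enzyme (ACE), and the sources used here do not give its dose or duration. The other 6 libraries came from GN mice labelled as given captopril (GN_captopril) and control mice on water (Control_water). They entered the shared estimate of spread and a parallel comparison.

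Several labels limit what the groups stand for. Disease and drink both differ between GN_water and Control_captopril, so that the effects of GN, of LPS and of the absence of captopril cannot be told apart. Each library title carries a pair of numbers, and no label says whether it stands for pooled animals, or that replicates are separate animals. The p values below therefore measure the spread between these libraries, which may be technical. All libraries were labelled as adult males. Xist, the RNA that silences the second X chromosome of female cells, stood at 209, 212 and 181 CPM (counts scaled to a common library total, with adjustment for composition) in GN_water and at 375, 314 and 345 CPM in Control_captopril. The summed CPM of 4 Y-linked genes stayed at or below 0.101 in both groups, against 121 to 144 in Control_water. These markers go against the male label in all 6 libraries compared. Xist was lower in GN_water without overlap, a log2 fold change of -0.78 ± 0.09 (SE; adjusted p = 3.69e-05, edgeR), so the groups share the marker and not its level. Renin (Ren1), the enzyme that starts the angiotensin cascade and that ACE inhibitors are known to raise, was at 23.3, 30.2 and 20.8 CPM in GN_water, against 63.4, 78.2 and 82.8 CPM in the libraries labelled Control_captopril. The Control_water libraries held 1083 to 1793 CPM of it and the GN_captopril libraries 438 to 690 CPM. Renin thus goes against the captopril label among controls, while among GN libraries it was higher in those labelled captopril. It was low in both groups with Xist and high in both with Y-linked RNA. Which of these renin follows was not tested, and group names stand for labels throughout.

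Immune-complex disease is known to begin with complexes that lodge in the glomerulus, where they activate complement and engage Fc receptors on leukocytes. Chemokines and adhesion molecules then bring monocytes and lymphocytes into the tissue, and transforming growth factor beta drives mesenchymal cells to lay down collagen. The proximal tubule, which makes up most of the cortex, lives mainly on fatty acid oxidation, and its injury markers and transporters are used to follow damage in many kidney diseases.

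Library totals were 20.4, 22.6 and 18.7 M counts (M, mega) in GN_water and 22.2, 21.2 and 19.6 M in Control_captopril, within the 14.2 to 22.8 M of the series. Spearman correlations between libraries of a group were 0.995 to 0.996. The first principal component of these 6 libraries held 74.3% of the variance and placed GN_water at 32.3 to 44.6 and Control_captopril at -44.4 to -32.4. Of 14618 genes tested with edgeR's quasi-likelihood test at an adjusted p under 0.05, 2476 (16.9%) were higher in GN_water and 1930 (13.2%) were lower. The sizes were unequal. At least 2-fold differences past the threshold numbered 1082 higher genes (7.4%) and 76 lower genes (0.52%), and at least 4-fold ones 378 higher and 17 lower. The 3 GN_water values lay entirely above the 3 Control_captopril values for 25.4% of genes and entirely below for 24.1%. The median log2 fold change of all genes was 0.00. A plot of change against level shows this asymmetry.

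**Figure D1:**
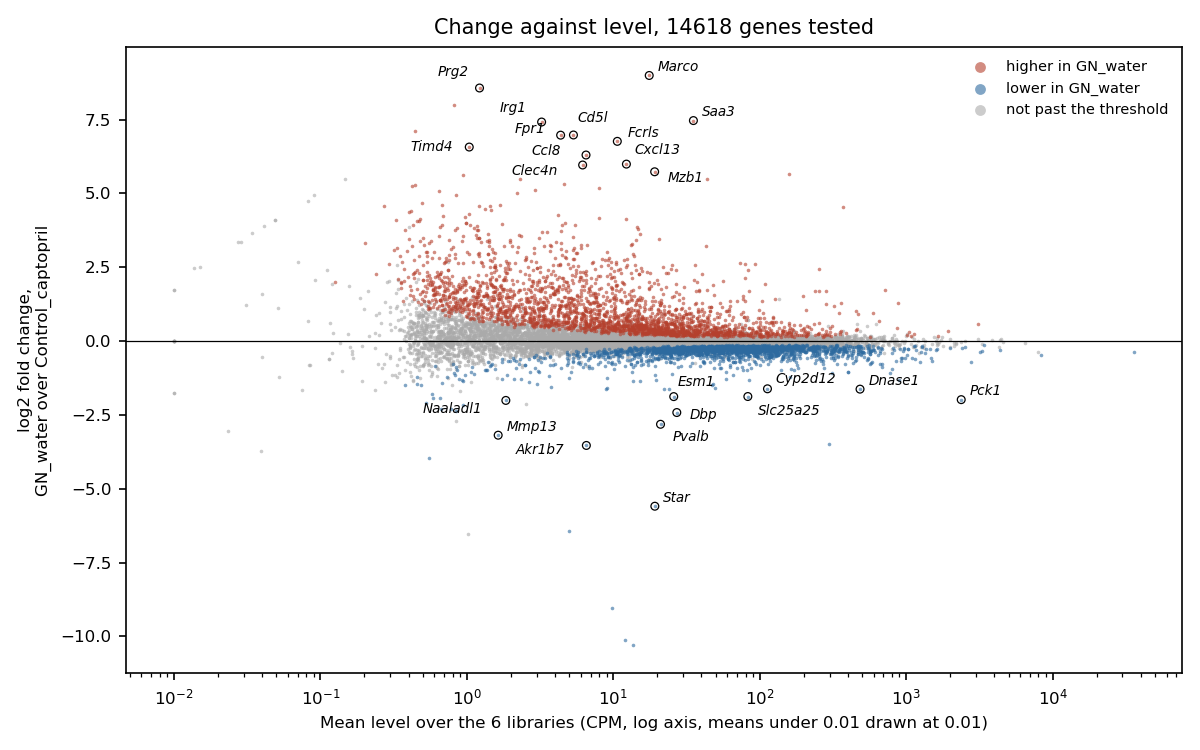
The log2 fold change of GN_water over Control_captopril is plotted against the mean CPM of the 6 libraries (log axis) for the 14618 genes tested, in red where higher, in blue where lower and in grey where not past the threshold. Circles and names mark the 12 higher genes and 11 of the 12 lower genes with the largest changes among genes whose mean reached 1 CPM and whose groups did not overlap; Prg2 had 0 counts in Control_captopril, so its height depends on the fit's prior count, and the 4 unnamed blue points at the bottom are adrenal genes high in Control_captopril 3.

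Lists of genes by role were read against those shares. The 57 lists name 956 symbols, of which 896 were tested, since a gene low in every group was filtered out and one expressed in a single group was kept. Counts of members below are of those tested. Of 252 immune genes tested, 216 rose in GN_water and 0 fell, with a median log2 fold change of 1.37. Of 105 fibrosis genes, 67 rose and 5 fell (median 0.60), and of 124 injury and stress genes, 72 rose and 9 fell (median 0.43). Of 178 metabolic genes, 7 rose and 97 fell (median -0.20), and of 165 genes of nephron segments and their vessels, 24 rose and 64 fell (median -0.14). The number of nephron genes that rose was 14 without GN_water 1 and 12 without GN_water 3. In cortex as a whole, more or fewer cells of a type and more or less RNA per cell cannot be told apart. The plot of list members shows the direction of each gene.

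**Figure D2:**
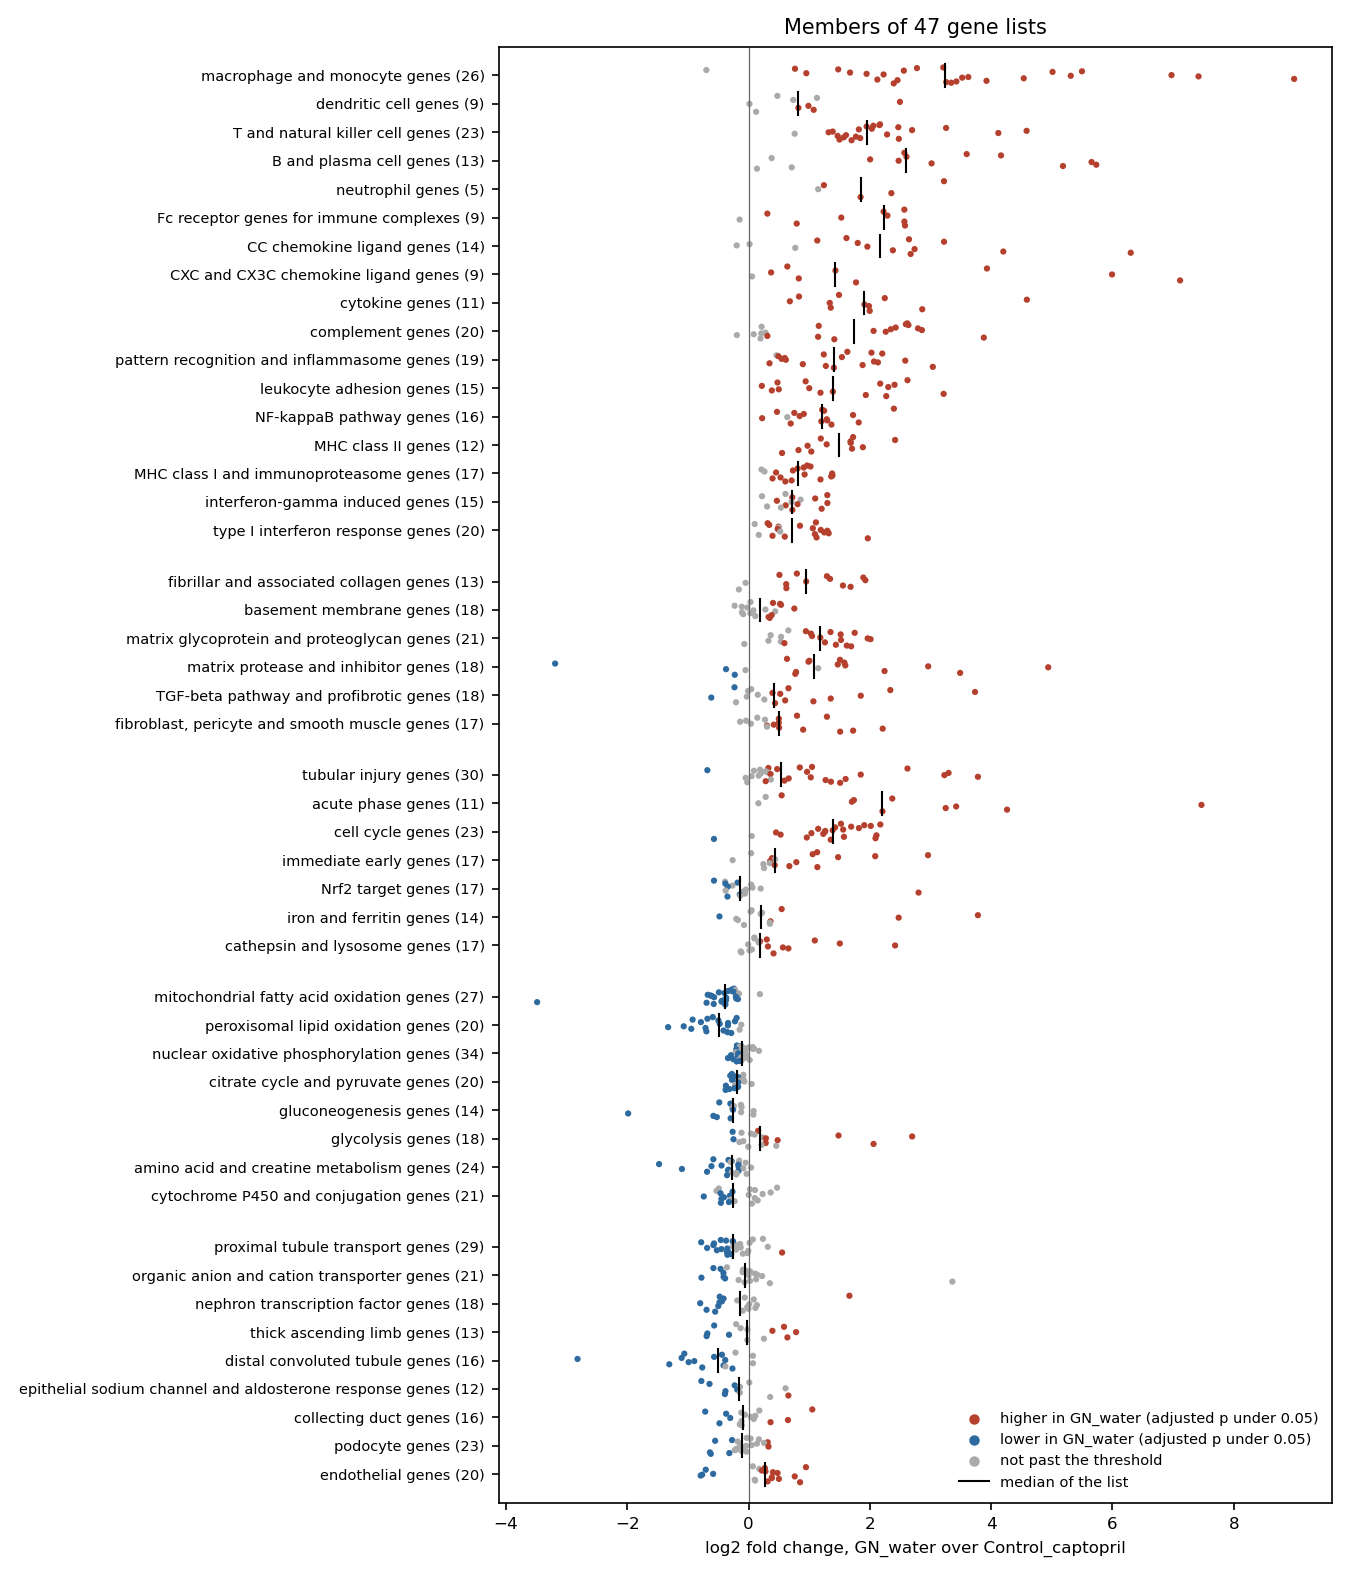
Each point is the log2 fold change (GN_water over Control_captopril) of 1 gene of the list on its row, for 47 lists, in red where higher past the threshold, in blue where lower and in grey otherwise; the black line is the list's median. Immune lists lie to the right of 0, fatty acid oxidation and distal convoluted tubule lists to the left.

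Macrophage genes had the largest median change of the 17 immune lists. Members were chosen with earlier results of these data known, so this ranking depends on that choice. Some members, such as Irg1 and Fpr1, were near 0 in Control_captopril and were kept through their level in GN libraries. Of 26 macrophage and monocyte genes tested, 25 rose and 0 fell, with a median log2 fold change of 3.23. Their summed level was 1146, 1718 and 1328 CPM in GN_water, against 160.2, 198 and 227 CPM in the libraries labelled Control_captopril. Lyz2, which encodes the lysozyme of macrophages and neutrophils (chromosome 10, 117277541 to 117282272, GRCm38), was at 577, 865 and 700.4 CPM in GN_water, against 20.9, 32 and 39.6 CPM in the libraries labelled Control_captopril. Every GN_water library stood far above every Control_captopril library, a log2 fold change of 4.54 ± 0.33 (adjusted p = 2.01e-06, edgeR). Here and below, a value with ± is a log2 fold change of GN_water over Control_captopril with its standard error (SE). The SE is the size of the change divided by the square root of the test's F value. That test shares its estimate of spread over all 12 libraries, 3 a group. Adgre1, the F4/80 surface protein of tissue macrophages, was at 63.8, 93.5 and 73.9 CPM in GN_water, against 5.56, 8.61 and 11 CPM in the libraries labelled Control_captopril. It too rose without overlap (3.21 ± 0.29, adjusted p = 6.68e-06, edgeR). The fractalkine receptor Cx3cr1 rose by 1.95 ± 0.10 on the log2 scale and Ms4a7, a membrane protein of macrophages, by 3.43 ± 0.24. The exception was the haemoglobin scavenger receptor Cd163, at 0.595, 0.329 and 0.0988 CPM in GN_water and 0.897, 0.276 and 0.506 CPM in those labelled Control_captopril, where the groups overlapped.

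Several of the genes with the largest rises encode receptors of phagocytes, and their levels in the libraries labelled Control_captopril were near 0. Marco, a scavenger receptor for bacteria and particles, was at 6.41, 75.7 and 23.3 CPM in GN_water, against 0.0448, 0.046 and 0.101 CPM in the libraries labelled Control_captopril. GN_water 2 held the most, and the spread within GN_water was wide. The same library was highest for Cd5l, a survival protein secreted by macrophages, with 1.01, 24.6 and 6.27 CPM in GN_water, and for Timd4, a receptor for dying cells, with 0.321, 4.69 and 1.19 CPM in GN_water. The spread was narrower for the next genes. The formyl peptide receptor Fpr1 was at 6.46, 10.9 and 8.7 CPM in GN_water, against 0.0448, 0.046 and 0.101 CPM in the libraries labelled Control_captopril. Irg1, which makes itaconate in activated macrophages, was at 4.95, 8.88 and 5.53 CPM in GN_water, against 0, 0.046 and 0.0506 CPM in the libraries labelled Control_captopril. Fcrls, a gene of resident macrophages and microglia in mice, was at 17.4, 24 and 22 CPM in GN_water, against 0.224, 0.138 and 0.202 CPM in the libraries labelled Control_captopril, and the lectin receptor Clec4n (dectin-2) at 8.06, 15 and 13.4 CPM in GN_water, against 0, 0.184 and 0.404 CPM in the libraries labelled Control_captopril. None of these 4 overlapped between the groups, which was a condition of the rule that named them. Prg2, the major basic protein of eosinophils, had 48, 90 and 29 counts in GN_water and 0 in each Control_captopril library.

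Receptors for the constant part of antibodies and their signalling partners rose in 8 of 9, with a median log2 fold change of 2.23. Fcer1g, the shared signalling chain of activating Fc receptors, was at 38.4, 49.4 and 42.2 CPM in GN_water, against 5.74, 8.24 and 7.99 CPM in the libraries labelled Control_captopril. It rose by 2.57 ± 0.23 on the log2 scale, and the kinase Syk, which that chain recruits, by 2.58 ± 0.35. The activating receptors Fcgr3 and Fcgr1 rose by 2.29 ± 0.26 and 2.23 ± 0.23. The inhibitory receptor Fcgr2b also passed the threshold with a smaller change, 0.31 ± 0.07, and Fcgrt, the receptor that recycles IgG in epithelium and endothelium, did not (-0.15 ± 0.06).

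Lymphocyte genes rose as well. Of 23 T and natural killer cell genes, 22 rose (median log2 fold change 1.95), and the exception was the granule protease Gzma (0.76 ± 0.29). Cd3e, a signalling chain of the T cell receptor, was at 2.98, 3.66 and 3.26 CPM in GN_water, against 0.538, 0.875 and 1.16 CPM in the libraries labelled Control_captopril. GN_water was higher in each library (1.95 ± 0.26, adjusted p = 0.000106, edgeR). Cd4, the co-receptor of helper T cells, rose by 3.26 ± 0.29. Of 13 B and plasma cell genes, 10 rose, with a median of 2.60. Jchain, which joins the units of IgM and secreted IgA, was at 205, 561 and 170.1 CPM in GN_water, against 5.7, 8.89 and 3.89 CPM in the libraries labelled Control_captopril. The groups were far apart, with GN_water 2 again the highest (5.66 ± 0.53, adjusted p = 9.09e-06, edgeR). Cd79a, part of the B cell receptor, rose by 4.16 ± 0.57, and Cd22, a B cell inhibitory receptor, by 3.60 ± 0.36. Xbp1, Prdm1 and Cr2, the B and plasma cell genes that did not pass, had log2 fold changes of 0.14 ± 0.12, 0.71 ± 0.28 and 0.38 ± 0.28.

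Neutrophil genes were mostly too low to test. Of 13, 8 fell below the filter on low counts, among them Ly6g with 0 counts in all 6 libraries and the granule genes Mpo, Elane, Ngp, Camp and Mmp8 with at most 4 counts in any. Of the 5 tested, S100a8, S100a9, Csf3r and Ltf rose and Mmp9 did not pass. S100a8, a calcium-binding alarm protein, was at 0.595, 1.4 and 0.692 CPM in GN_water and 0.269, 0.138 and 0.101 CPM in those labelled Control_captopril. The groups did not overlap (2.35 ± 0.52), and Csf3r, the receptor for granulocyte growth factor, rose by 3.22 ± 0.27. The call for Ltf was lost without Control_captopril 3, GN_water 2 or GN_water 3. Dendritic cell genes rose in 4 of 9, Clec10a, Flt3, Itgax and Xcr1. The call for Itgax was lost without GN_water 2 and that for Xcr1 without GN_water 1.

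**Figure D3:**
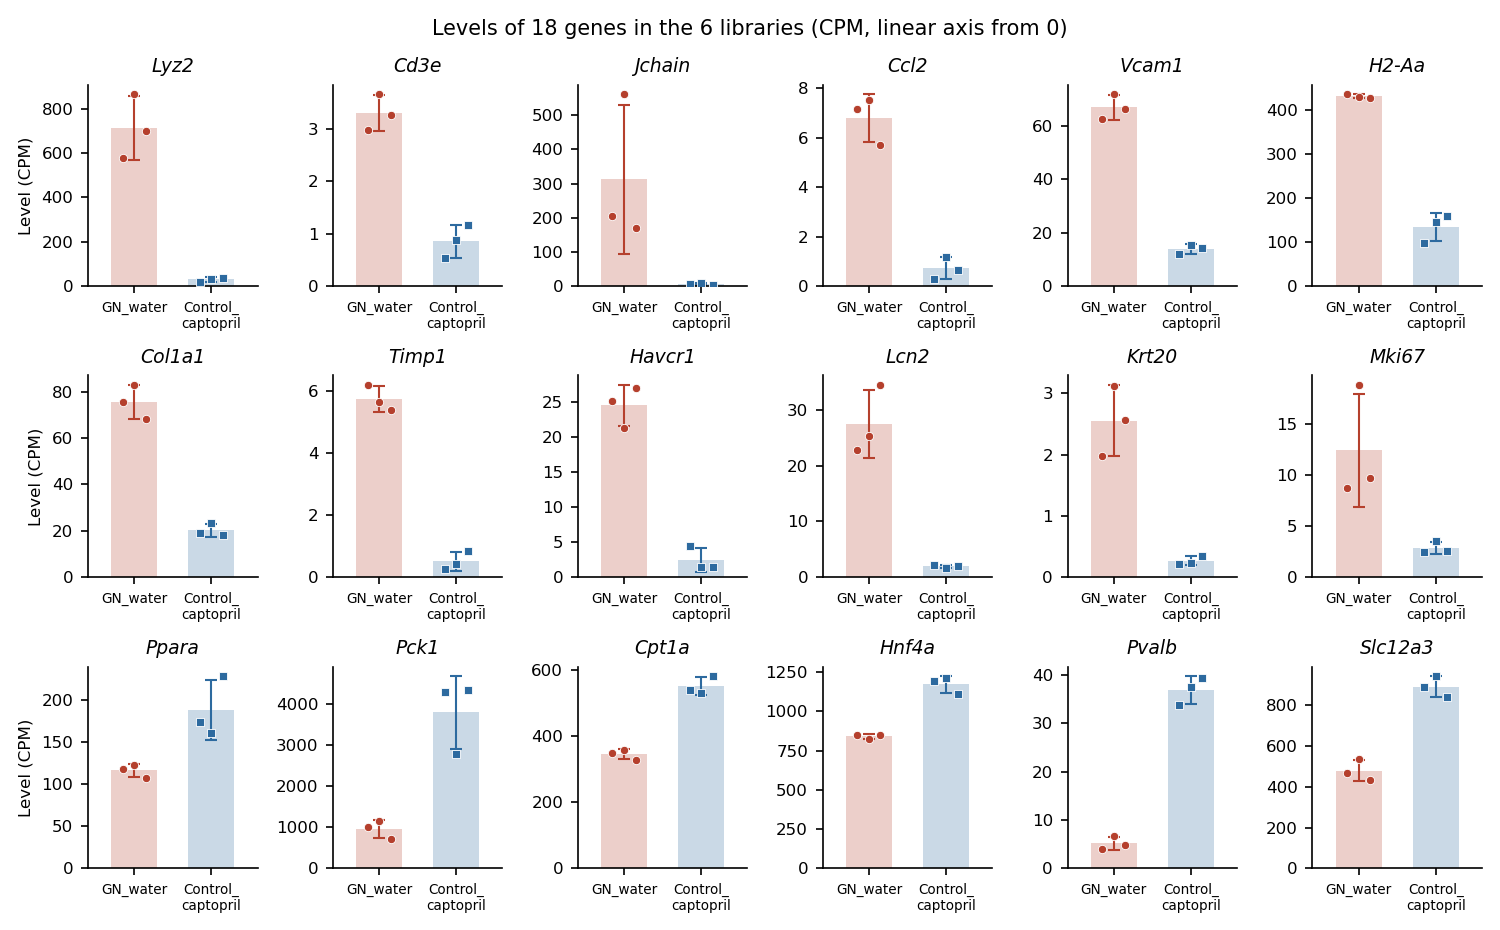
Levels of 18 genes in CPM (linear axis from 0, separate for each gene) are drawn with bars for the mean, lines for the SD and points for the 3 libraries of GN_water (left) and Control_captopril (right). Lyz2, Cd3e, Jchain, Col1a1 and Lcn2 stand higher in every GN_water library, and Ppara, Pck1, Cpt1a, Pvalb and Slc12a3 lower.

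Chemokines that attract monocytes and lymphocytes rose in both families. Of 14 CC chemokine ligand genes, 11 rose (median log2 fold change 2.17), and of 9 CXC and CX3C ligand genes, 8 rose (median 1.43). Ccl2, the main monocyte attractant, was at 7.14, 7.52 and 5.68 CPM in GN_water, against 0.314, 1.2 and 0.657 CPM in the libraries labelled Control_captopril. It rose by 3.22 ± 0.34 without overlap (adjusted p = 1.9e-05, edgeR). Ccl8, another ligand that attracts monocytes and T cells, was at 9.66, 16.6 and 12.4 CPM in GN_water, against 0.0448, 0.138 and 0.303 CPM in the libraries labelled Control_captopril. Ccl5, which attracts T cells, rose by 2.74 ± 0.31. Cxcl13, the B cell attractant of lymphoid follicles, was at 12.6, 42.4 and 17.6 CPM in GN_water, against 0.359, 0.598 and 0.152 CPM in the libraries labelled Control_captopril, and Ccl19, which guides T cells and dendritic cells, rose by 1.13 ± 0.18. Both are also genes of lymph node tissue, of which Ccl21a was measured at 4.72, 3.74 and 5.68 CPM in GN_water and 3.54, 4.56 and 4.04 CPM in those labelled Control_captopril and overlapped. Cxcl5, a neutrophil attractant, was at 0.55, 1.32 and 0.79 CPM in GN_water, against 0, 0 and 0 CPM in the libraries labelled Control_captopril.

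Cxcl1, a neutrophil attractant induced by NF-kB, was at 1.24, 1.52 and 1.09 CPM in GN_water, against 0.0448, 0.138 and 0.0506 CPM in the libraries labelled Control_captopril. All GN_water libraries were higher (3.93 ± 0.52, adjusted p = 0.000103, edgeR). The 250 bases before its start (RefSeq, GRCm38.p6, chr5:90890995-90891244, plus strand) are shown because NF-kB is known to act there. Capitals mark the 3 matches of GGGANNNNCC, a form of the kappaB site searched on both strands. The match on the minus strand overlaps a match on the plus strand, and they share a stretch of capitals.
Cxcl1: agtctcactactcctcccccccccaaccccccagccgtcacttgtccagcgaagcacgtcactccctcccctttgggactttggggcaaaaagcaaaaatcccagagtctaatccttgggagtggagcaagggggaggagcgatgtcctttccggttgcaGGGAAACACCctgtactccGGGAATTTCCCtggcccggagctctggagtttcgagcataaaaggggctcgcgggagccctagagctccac
This motif was found before the start of 4 of 7 CXC and CX3C genes (57.1%) and 7 of 13 NF-kB genes (53.8%) with a window, and of 26.4% of the 11079 tested genes with a window. A match describes the letters only.

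Genes of the NF-kB system itself rose in 15 of 16 (median 1.21). Nfkbia, the inhibitor that NF-kB induces as a brake, rose by 0.91 ± 0.08, the subunit Relb by 1.29 ± 0.13 and the survival factor Birc3 by 1.25 ± 0.08, while Rel did not pass (0.64 ± 0.27). Sensors of microbes and danger rose in 18 of 19. Tlr1 and Tlr2, which pair to sense bacterial lipoproteins, rose by 2.58 ± 0.22 and 2.13 ± 0.18, and Casp4, which binds LPS inside cells, by 2.20 ± 0.22. Ly96 (MD-2), which binds LPS for Tlr4, was the exception (0.46 ± 0.17). All 11 cytokine genes tested rose. The other 5 of the 16 listed, Il1a, Il6, Il10, Lta and Osm, fell below the filter on low counts. Il1b rose by 2.25 ± 0.19 and its natural antagonist Il1rn by 4.59 ± 0.39. The macrophage growth factor Csf1 rose by 1.49 ± 0.12 and the second ligand of its receptor, Il34, by 1.34 ± 0.16.

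Leukocyte adhesion genes, of both vessel and leukocyte, rose in 15 of 15 (median 1.39). Vcam1, which binds monocyte and lymphocyte integrins (chromosome 3, 116110020 to 116129688), was at 62.7, 71.9 and 66.4 CPM in GN_water, against 11.9, 15.3 and 14.5 CPM in the libraries labelled Control_captopril. The groups did not overlap (2.27 ± 0.10, adjusted p = 1.35e-07, edgeR). Icam1, the ligand of leukocyte LFA-1, rose by 0.94 ± 0.09, and Selp, the P-selectin of platelets and activated endothelium, by 3.22 ± 0.36. Cd44, the hyaluronan receptor of leukocytes and injured epithelium, rose by 2.62 ± 0.26.

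Complement genes rose in 14 of 20 with a median of 1.74. C1qa, a chain of the classical pathway's recognition molecule made largely by macrophages, was at 118, 151 and 140.2 CPM in GN_water, against 17.2, 23.2 and 26.4 CPM in the libraries labelled Control_captopril, a rise of 2.62 ± 0.24. C3, the component on which the pathways converge, was at 402, 585 and 304 CPM in GN_water, against 78.3, 75.3 and 86.9 CPM in the libraries labelled Control_captopril. Each GN_water value was higher, with GN_water 2 above the others (2.43 ± 0.48, adjusted p = 0.00203, edgeR). C3ar1, the receptor for the C3a fragment, rose by 2.79 ± 0.20 and C7, part of the membrane attack complex, by 2.26 ± 0.14. Factor B (Cfb), which the kidney tubule expresses, was at 399, 379 and 341 CPM in GN_water and 347, 362 and 346 CPM in those labelled Control_captopril and did not pass the threshold.

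Genes that present antigen rose. All 12 MHC class II genes tested rose (median 1.48), and 15 of 17 class I and immunoproteasome genes did (median 0.81). H2-Aa, a class II chain, was at 435, 428 and 427 CPM in GN_water, against 98.3, 145 and 159 CPM in the libraries labelled Control_captopril. The groups did not overlap (1.68 ± 0.18, adjusted p = 2.54e-05, edgeR), and Ctss, the protease that prepares class II for peptide, rose by 2.42 ± 0.23. B2m, the common chain of class I, rose by 0.97 ± 0.17, and Tap1, which pumps peptides to it, by 1.19 ± 0.20. Sequences of H2 genes are alike, so reads can be split between their members.

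Interferon targets had lower medians. Of 20 type I interferon targets, 16 rose with a median of 0.72, and 10 did without GN_water 1. Isg15, a ubiquitin-like modifier, was at 11.6, 10.4 and 10.6 CPM in GN_water, against 3.54, 6.03 and 4.7 CPM in the libraries labelled Control_captopril, a rise of 1.19 ± 0.23 without overlap. Of 15 interferon gamma targets, 9 rose (median 0.72). In the parallel comparison of GN_captopril with Control_water, where 7.05% of all genes rose, 14 of these 15 rose (median 1.14). Of the 20 type I targets 7 rose there (median 0.44), and the difference between both comparisons passed for 0 genes of either list. Summed levels of the interferon gamma list were 364 to 448 CPM in Control_captopril and 268 to 283 CPM in Control_water. The guanylate-binding protein Gbp2 was at 58, 45.3 and 52.9 CPM in GN_water, against 17, 25.2 and 21.3 CPM in the libraries labelled Control_captopril, a rise of 1.30 ± 0.25. Irf1, a factor that interferon gamma induces, rose by 0.81 ± 0.12. Gbp3, Gbp6, Irgm1, Irgm2, Igtp and Cd274 of the same list did not pass. The 250 bases before the starts of Isg15 (chr4:156200819-156201068, minus strand) and Gbp2 (chr3:142620413-142620662, plus strand; both RefSeq, GRCm38.p6) are printed since interferon factors are known to bind the GAAANNGAA core. It is in capitals, with 3 overlapping matches in Isg15 and 1 match in Gbp2 on either strand.
Isg15: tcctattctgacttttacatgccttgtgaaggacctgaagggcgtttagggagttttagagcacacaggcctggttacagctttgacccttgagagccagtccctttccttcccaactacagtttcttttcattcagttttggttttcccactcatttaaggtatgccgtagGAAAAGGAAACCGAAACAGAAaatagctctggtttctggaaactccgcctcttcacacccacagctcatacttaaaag
Gbp2: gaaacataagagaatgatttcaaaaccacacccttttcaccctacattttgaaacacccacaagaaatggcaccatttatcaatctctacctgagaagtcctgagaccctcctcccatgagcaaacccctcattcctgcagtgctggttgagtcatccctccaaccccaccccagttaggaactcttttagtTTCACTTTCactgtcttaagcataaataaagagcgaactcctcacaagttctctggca
The core was found for 8 of 15 type I targets (53.3%), 9 of 11 interferon gamma targets (81.8%) and 7.84% of tested genes with a window. Members with the core did not all pass, since Ifit3, Rsad2, Gbp3, Irgm1, Irgm2, Igtp and Cd274 hold it.

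Matrix genes rose, among them the collagens of the interstitium. Of 13 fibrillar and associated collagen genes, 11 rose and 0 fell (median 0.95). Col1a1, a chain of type I collagen, the main protein of scar (chromosome 11, 94936224 to 94953042), was at 75.3, 82.8 and 68.4 CPM in GN_water, against 19.1, 23.5 and 18.4 CPM in the libraries labelled Control_captopril. Its rise of 1.89 ± 0.12 was far beyond the spread of either group (adjusted p = 1.12e-06, edgeR). Col3a1, the type III chain laid down early in repair, was at 169.6, 199 and 147 CPM in GN_water, against 40.7, 44.7 and 50.6 CPM in the libraries labelled Control_captopril, a rise of 1.93 ± 0.16. Col6a1 and Col6a2, of the microfibrils around cells, rose by 1.56 ± 0.12 and 1.68 ± 0.12. Basement membrane genes moved less, with 7 of 18 higher (median 0.20). That count was 4 without Control_captopril 3 or without GN_water 2. Col4a1 and Col4a2, the collagen chains of all basement membranes, rose by 0.52 ± 0.11 and 0.54 ± 0.11. Col4a3 of the adult glomerular basement membrane was at 235, 229 and 228 CPM in GN_water and 303, 240.1 and 268 CPM in those labelled Control_captopril and did not pass.

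Of 21 matrix glycoprotein and proteoglycan genes, 15 rose (median 1.18). Fibronectin (Fn1), the early scaffold of scar, was at 74.4, 112 and 74.7 CPM in GN_water, against 39.9, 38.3 and 36.7 CPM in the libraries labelled Control_captopril, a rise of 1.18 ± 0.20. Tenascin C (Tnc), which appears around injured tissue, rose by 1.62 ± 0.13, elastin (Eln) by 1.75 ± 0.13 and Sparc, a collagen-binding protein, by 1.26 ± 0.10. Periostin (Postn) did not pass (0.53 ± 0.33).

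Among enzymes that cut matrix and their inhibitors, 13 of 18 rose and 3 fell. Timp1, which inhibits matrix metalloproteinases, was at 6.18, 5.63 and 5.39 CPM in GN_water, against 0.269, 0.414 and 0.86 CPM in the libraries labelled Control_captopril. The groups were well apart (3.49 ± 0.32, adjusted p = 7.15e-06, edgeR). Mmp14, a membrane collagenase, rose by 1.47 ± 0.15. Mmp13, a collagenase, went the other way and was at 0.275, 0.247 and 0.445 CPM in GN_water, against 2.24, 3.13 and 3.49 CPM in the libraries labelled Control_captopril. The change was -3.19 ± 0.31 (adjusted p = 1.06e-05, edgeR), and Timp3 and the plasminogen activator Plat fell as well (-0.23 ± 0.08 and -0.37 ± 0.09).

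The transforming growth factor beta list had 10 of 18 genes higher and 2 lower. The ligand Tgfb1 was at 24.8, 30.5 and 27.6 CPM in GN_water, against 8.92, 11.2 and 12.3 CPM in the libraries labelled Control_captopril, a rise of 1.36 ± 0.16. Ltbp2, a matrix protein of the latent-TGF-beta binding family, rose by 3.73 ± 0.28, and the receptor Tgfbr2 by 0.44 ± 0.05. Smad7, an inhibitor of the pathway, and Bmp7, a growth factor that opposes it in kidney, fell (-0.61 ± 0.12 and -0.23 ± 0.06). Mesenchymal genes rose in 11 of 17 (median 0.50). Acta2, the smooth muscle actin of myofibroblasts and vessels, was at 58.3, 57.6 and 50.9 CPM in GN_water, against 33.5, 31.7 and 30.6 CPM in the libraries labelled Control_captopril, a rise of 0.80 ± 0.09. Vimentin (Vim) rose by 1.51 ± 0.17, and the pericyte receptor Pdgfrb did not pass (0.30 ± 0.12).

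Tubular injury genes rose in 19 of 30 and fell in 1, with a median of 0.53. Havcr1 (Kim-1), which injured proximal tubule cells put on their surface (chromosome 11, 46739822 to 46779578), was at 25.1, 21.4 and 27.1 CPM in GN_water, against 4.48, 1.47 and 1.42 CPM in the libraries labelled Control_captopril. Even the lowest GN_water library was above the highest Control_captopril library (3.30 ± 0.31, adjusted p = 9.38e-06, edgeR). Lcn2 (NGAL), the iron-carrier trap that distal cells and neutrophils release, was at 22.8, 25.2 and 34.4 CPM in GN_water, against 2.29, 1.7 and 1.97 CPM in the libraries labelled Control_captopril, a rise of 3.78 ± 0.29 (adjusted p = 2.88e-06, edgeR). Krt20, a keratin of injured tubules, was at 1.97, 3.12 and 2.57 CPM in GN_water, against 0.224, 0.23 and 0.354 CPM in the libraries labelled Control_captopril, a rise of 3.23 ± 0.32. Spp1 (osteopontin) rose by 0.59 ± 0.09. Egf, the growth factor of the distal tubule whose loss tracks damage, was the member that fell, at 1102, 1276 and 1077 CPM in GN_water, against 1958, 1724 and 1849 CPM in the libraries labelled Control_captopril, a change of -0.68 ± 0.13. Umod, made in the same region, was at 4520.2, 4122 and 5079.7 CPM in GN_water and 5322, 4076 and 4522 CPM in those labelled Control_captopril, with overlap (-0.02 ± 0.13).

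Acute phase genes rose in 9 of 11 (median 2.21). Saa3, a serum amyloid made by macrophages and epithelium in mice, was at 21.6, 151 and 37.7 CPM in GN_water, against 0.269, 0.598 and 0.303 CPM in the libraries labelled Control_captopril. GN_water 2 was far above the other GN_water libraries, as for Marco. Serpina3g, a protease inhibitor, was even across GN_water, at 23.4, 24.5 and 23.4 CPM in GN_water, against 1.21, 3.18 and 3.13 CPM in the libraries labelled Control_captopril, and Lbp, which carries LPS to cells, rose by 1.74 ± 0.12.

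Cell-cycle genes rose in 21 of 23 and fell in 1 (median 1.39). Mki67, a protein of dividing nuclei, was at 8.7, 18.8 and 9.73 CPM in GN_water, against 2.51, 3.54 and 2.58 CPM in the libraries labelled Control_captopril, a rise of 2.11 ± 0.26, and Top2a, which untangles replicated DNA, rose by 2.09 ± 0.29. Tyms, which makes thymidylate, was the one that fell (-0.57 ± 0.09), and the replication clamp Pcna did not pass (0.05 ± 0.07). In the parallel comparison of GN_captopril with Control_water, 2 of these 23 passed as higher (median 0.56), near the 7.05% of all genes that did. The difference between both comparisons passed for 4 in the positive direction, where 3.34% of all genes tested did. Which cells divided was not tested. Immediate early genes, which respond to handling and to injury within minutes, rose in 11 of 17. That count was 6 or 7 without Control_captopril 1 or 2 or without GN_water 1 or 2.

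Antioxidant genes of the Nrf2 program did not rise as a group, with 1 of 17 higher, 6 lower and a median of -0.14. Catalase (Cat), the peroxisomal enzyme that breaks down hydrogen peroxide, was at 836, 825 and 718 CPM in GN_water, against 1199, 1193 and 1138 CPM in the libraries labelled Control_captopril, and Gpx3, the secreted glutathione peroxidase of the proximal tubule, fell too (-0.57 ± 0.06 and -0.38 ± 0.07). Slc7a11, which imports cystine, was the member that rose (2.80 ± 0.44), at low levels of 0.687, 1.19 and 1.19 CPM in GN_water and 0.135, 0.184 and 0.101 CPM in those labelled Control_captopril. Hmox1, the heme-degrading enzyme, overlapped (0.20 ± 0.18). Of 14 iron genes, 4 rose, which were Lcn2, ceruloplasmin (Cp), Steap3 and Slc11a1, an iron pump of phagosomes (2.48 ± 0.27). The 1 that fell was Ncoa4, which delivers ferritin for breakdown (-0.48 ± 0.08). The ferritin chains Fth1 and Ftl1 did not pass (0.05 ± 0.05 and 0.03 ± 0.06).

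Metabolic genes fell in many of the lists, mostly by small amounts. Of 27 genes of mitochondrial fatty acid oxidation, 24 fell and 0 rose (median -0.38), and of 20 peroxisomal genes, 18 fell (median -0.49). Cpt1a, the gate for fatty acids into mitochondria (chromosome 19, 3322326 to 3385735), was at 349.9, 358 and 328 CPM in GN_water, against 538, 532 and 581 CPM in the libraries labelled Control_captopril. The change was -0.67 ± 0.06 with no overlap (adjusted p = 1.01e-05, edgeR). Ppara, the receptor that switches on these genes, was at 119, 123 and 108 CPM in GN_water, against 175, 162 and 229 CPM in the libraries labelled Control_captopril, a change of -0.69 ± 0.11, and its co-activator Ppargc1a fell (-0.39 ± 0.09). Hadhb, of the trifunctional protein, fell (-0.45 ± 0.05), while the medium-chain enzyme Acadm did not pass (-0.22 ± 0.14). Ehhadh, of peroxisomal oxidation, was at 605, 521 and 528 CPM in GN_water, against 1283, 918 and 978 CPM in the libraries labelled Control_captopril, a change of -0.94 ± 0.13.

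Of 20 genes of the citrate cycle and pyruvate entry, 14 fell (median -0.19), among them the pyruvate dehydrogenase subunit Pdha1 (-0.37 ± 0.05). Respiratory chain genes fell in 10 of 34, by a median of -0.10, and in 18 without GN_water 3. Sdha, the succinate dehydrogenase flavoprotein, fell (-0.34 ± 0.05).

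Of 14 gluconeogenesis genes, 7 fell. Pck1, which commits the proximal tubule to glucose and ammonia production (chromosome 2, 173153073 to 173159274), was at 1017, 1141 and 718 CPM in GN_water, against 4279.7, 2777 and 4327 CPM in the libraries labelled Control_captopril. The groups were well apart (-1.98 ± 0.19, adjusted p = 9.09e-06, edgeR). G6pc, which releases the glucose, did not pass (-0.24 ± 0.10), though it did with DESeq2 and with the 6 libraries alone, and Slc37a4, the transporter that feeds it, fell (-0.52 ± 0.05). Glycolysis genes rose in 7 of 18 and fell in 2, Pfkm and Eno1. Hk3, a hexokinase of leukocytes, rose by 2.70 ± 0.35 and the lactate exporter Slc16a3 by 2.06 ± 0.39, alongside the macrophage genes, and their part in this list was not tested. Amino acid and creatine genes fell in 14 of 24, with Bhmt, the betaine-homocysteine enzyme, at 26.4, 29.1 and 19.3 CPM in GN_water, against 82.1, 68.4 and 58.1 CPM in the libraries labelled Control_captopril (-1.47 ± 0.23). Xenobiotic enzymes fell in 8 of 21, such as the monooxygenase Fmo1 (-0.74 ± 0.07).

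Proximal tubule transporters fell in 15 of 29, and 1 rose, the amino acid transporter Slc7a13 (0.55 ± 0.18), in a call lost without most single libraries. Slc4a4, the basolateral bicarbonate cotransporter, was at 706, 786 and 642 CPM in GN_water, against 1209.8, 1053 and 1163 CPM in the libraries labelled Control_captopril, a change of -0.68 ± 0.16, and Slc13a3, the dicarboxylate carrier, fell (-0.78 ± 0.09). Of the endocytic receptors for filtered protein, Cubn fell (-0.46 ± 0.08) and megalin (Lrp2) passed narrowly (-0.26 ± 0.09), a call that was lost without Control_captopril 1, Control_captopril 3 or GN_water 2. The phosphate transporter Slc34a1, the glucose transporter Slc5a2 and the water channel Aqp1 did not pass (-0.19 ± 0.09, -0.21 ± 0.10 and 0.07 ± 0.09). Organic ion carriers fell in 6 of 21, with the carnitine carrier Slc22a5 at -0.78 ± 0.08 on the log2 scale. Factors that set nephron identity fell in 8 of 18, and 1 rose, the epithelial factor Elf5 (1.66 ± 0.32). Hnf4a, which governs the mature proximal tubule program, was at 852, 823 and 847 CPM in GN_water, against 1193, 1211 and 1111 CPM in the libraries labelled Control_captopril. The change was modest and even across libraries (-0.48 ± 0.06, adjusted p = 7.5e-05, edgeR).

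Distal convoluted tubule genes fell in 12 of 16 (median -0.50). Slc12a3, the thiazide-sensitive salt transporter that defines it (chromosome 8, 94329109 to 94366222), was at 467, 537 and 432 CPM in GN_water, against 891, 941 and 838 CPM in the libraries labelled Control_captopril, a change of -0.89 ± 0.12 (adjusted p = 9.23e-05, edgeR). Pvalb, the calcium buffer of its early part, was at 4.03, 6.66 and 4.89 CPM in GN_water, against 33.8, 37.4 and 39.4 CPM in the libraries labelled Control_captopril, the largest fall of the list (-2.82 ± 0.17). Calb1, a calcium buffer of its later part, fell (-1.06 ± 0.17), as did the magnesium channel Trpm6 (-1.31 ± 0.11) and Klhl3, which controls the kinases that switch Slc12a3 on (-1.10 ± 0.12). The thick ascending limb was mixed. Of 13 genes, 4 rose (2 without GN_water 3), among them the tight junction genes Cldn16 and Cldn19 and the prostaglandin receptor Ptger3. The 4 that fell were Egf, the calcium sensor Casr and the potassium channels Kcnj1 and Kcnj16. Of 12 aldosterone-responsive genes 6 fell and 1 rose. The sodium channel subunit Scnn1a fell (-0.38 ± 0.06), Klotho (Kl) fell (-0.64 ± 0.09) and the kinase Sgk1 rose (0.66 ± 0.15).

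Of 16 collecting duct genes, Aqp2, Fxyd4 and Krt18 were higher and Aqp4, Atp6v1b1, Car2 and Rhcg lower. The higher share was near that of all genes tested, of which 16.9% were higher and 13.2% lower. Only 1 collecting duct gene was higher without Control_captopril 3, GN_water 1 or GN_water 3. The water channel Aqp2 was at 276, 231 and 337 CPM in GN_water, against 153, 129.5 and 124 CPM in the libraries labelled Control_captopril, a rise of 1.05 ± 0.18. Aqp2 also stands among genes of the inner kidney, of which 4 of 10 rose (Aqp2, Fxyd4, Slc14a2 and Akr1b3), and 2 without GN_water 3. The urea transporter Slc14a2 was at 65.2, 24.7 and 88.8 CPM in GN_water and 29, 8.89 and 6.12 CPM in those labelled Control_captopril and overlapped. The share of medulla in a cortex sample was not tested.

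Podocytes hold the glomerular filter. Of their 23 genes tested, 16 did not pass, 2 rose, among them the actin regulator Inf2, and Wt1, Vegfa, Thsd7a, Clic5 and Dach1 fell. Nephrin (Nphs1), the core of the slit diaphragm, was at 49.1, 55.1 and 40.7 CPM in GN_water, against 50.2, 54.7 and 44 CPM in the libraries labelled Control_captopril, with overlap (-0.04 ± 0.13). Wt1, the master factor of podocytes, was at 10.4, 11.5 and 9.78 CPM in GN_water, against 17.2, 13.4 and 18.2 CPM in the libraries labelled Control_captopril, a change of -0.62 ± 0.12. The lower count was 3 without Control_captopril 1, and the higher count 0 or 1 without some libraries.

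Endothelial genes rose in 12 of 20 and fell in 4. The higher count was 7 without Control_captopril 3 and 6 without GN_water 3. Cd34, a sialomucin of vessels and progenitors, was at 65.3, 68.6 and 67.6 CPM in GN_water, against 32.1, 36.4 and 36 CPM in the libraries labelled Control_captopril, a rise of 0.95 ± 0.12, and Plvap, of fenestrated capillaries, rose by 0.50 ± 0.08. Kdr, the main receptor of vascular endothelial growth factor, was at 40.4, 38.4 and 37.1 CPM in GN_water, against 73.5, 67.9 and 58.8 CPM in the libraries labelled Control_captopril, a change of -0.79 ± 0.12. Flt1, another receptor of that factor (-0.58 ± 0.11), Igfbp3 (-0.76 ± 0.12) and Ehd3, a marker of glomerular endothelium (-0.71 ± 0.08), made up the other falls, and Vegfa, the podocytes' signal to Kdr, was lower as well (-0.32 ± 0.10). Esm1, an endothelial proteoglycan that the growth factor induces, was at 10.2, 11.3 and 11.7 CPM in GN_water, against 36.3, 41.8 and 44 CPM in the libraries labelled Control_captopril (-1.88 ± 0.10). Links between these genes, and which cells held less Vegfa, were not tested.

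Renin itself was lower in GN_water by the values given above, a change of -1.59 ± 0.22 (adjusted p = 0.00016, edgeR). Klk1, the tissue kallikrein that releases kinins, was at 2872, 3105 and 2772 CPM in GN_water, against 3386, 3961 and 3649.6 CPM in the libraries labelled Control_captopril, a change of -0.33 ± 0.07. Angiotensinogen (Agt), Ace and the receptor Agtr1a did not pass (0.23 ± 0.09, -0.13 ± 0.10 and -0.04 ± 0.06). In all, 6 of 16 genes of this system fell and 1 rose, Ctsd (0.19 ± 0.07), a call lost when some libraries were left out.

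Clock genes differed between these groups. Of 19, 12 fell and 4 rose (median -0.62). Dbp, an output factor that the clock activates, was at 10.4, 8.92 and 6.27 CPM in GN_water, against 47.9, 42.9 and 46.6 CPM in the libraries labelled Control_captopril, a change of -2.42 ± 0.16 (adjusted p = 1.27e-06, edgeR). The period gene Per3, a clock repressor, was at 4.49, 4.93 and 4.25 CPM in GN_water, against 16.1, 11.8 and 13 CPM in the libraries labelled Control_captopril, a change of -1.58 ± 0.13. Ciart, another repressor, was low throughout, at 0.321, 0.288 and 0.148 CPM in GN_water, against 1.3, 0.875 and 1.72 CPM in the libraries labelled Control_captopril. The activators Arntl and Npas2 were higher (0.70 ± 0.21 and 1.11 ± 0.23), as were Cry1 and Nfil3, and the higher count was 1 without Control_captopril 2 or GN_water 3 and 2 without GN_water 2. The labels used here give no time of day of tissue collection, so collection time and group cannot be told apart. In the parallel comparison the direction was opposite for Dbp (1.29 ± 0.14), Ciart (2.12 ± 0.30), Arntl (-1.66 ± 0.24) and Npas2 (-1.45 ± 0.25).
The 250 bases before RefSeq starts of Per3 (chr4:151044666-151044915, minus strand) and Ciart (chr3:95882229-95882478, minus strand; GRCm38.p6) are printed because clock factors are known to act through such boxes. These starts lie inside the annotated genes, so that 42 bases of the Per3 window and 29 of the Ciart window belong to the gene. Capitals mark 2 matches of the D-box TTATGTAA in Per3 and 3 of the E-box CACGTG in Ciart, on either strand.
Per3: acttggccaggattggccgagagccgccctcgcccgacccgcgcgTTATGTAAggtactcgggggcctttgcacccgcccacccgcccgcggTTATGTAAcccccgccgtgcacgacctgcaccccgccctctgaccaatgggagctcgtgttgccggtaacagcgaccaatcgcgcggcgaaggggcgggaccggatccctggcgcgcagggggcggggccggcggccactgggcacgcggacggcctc
Ciart: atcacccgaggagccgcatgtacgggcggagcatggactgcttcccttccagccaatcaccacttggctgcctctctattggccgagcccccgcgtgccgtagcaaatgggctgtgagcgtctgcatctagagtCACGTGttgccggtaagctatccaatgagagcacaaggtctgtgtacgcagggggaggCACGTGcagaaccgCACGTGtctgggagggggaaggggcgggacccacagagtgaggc
The D-box was found for 1 of 16 clock genes, Per3, and for 0.668% of tested genes with a window. The E-box was found for 5 of 16 clock genes (31.3%), against 9.58% of tested genes with a window.

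**Figure D4:**
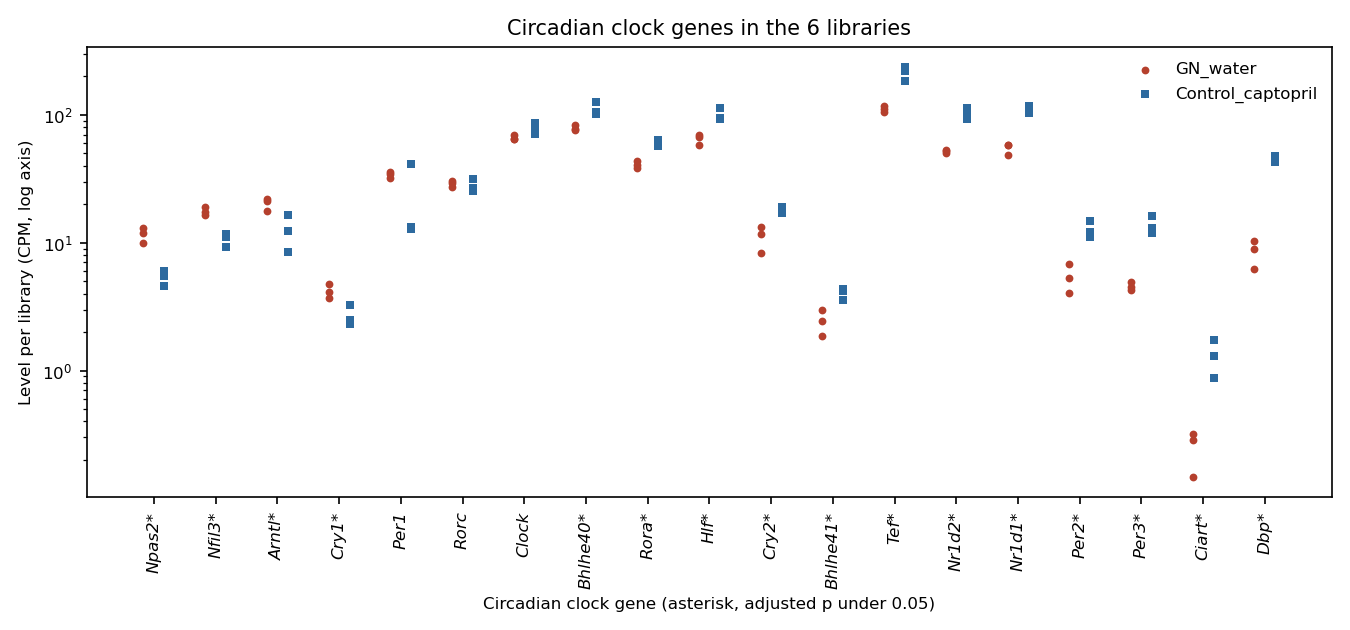
The level of 19 clock genes in CPM (log axis) is shown for each of the 3 libraries of GN_water and the 3 of Control_captopril. Dbp, Per3 and Ciart lie lower in each GN_water library and Npas2 higher, while Per1 overlaps.

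Genes of neighbouring tissue moved in single libraries. The adrenal cortex genes Star, Cyp11a1, Cyp11b1, Cyp21a1 and Hsd3b1 were called lower in GN_water, 5 of 8 tested. The call rests on Control_captopril 3, since Star, the cholesterol carrier of steroid synthesis, was at 1.14, 0.616 and 0.543 CPM in GN_water, against 2.42, 1.24 and 109 CPM in the libraries labelled Control_captopril. Without Control_captopril 3, 0 of them were called lower, and likewise without any 1 of the GN_water libraries. Akr1b7, an aldose reductase of adrenal cortex and renin cells, was at 1.14, 0.945 and 0.988 CPM in GN_water, against 2.78, 1.66 and 31.8 CPM in the libraries labelled Control_captopril and followed the same library. Red cell genes rose in 2 of 8, among them the heme enzyme Alas2, and in 0 without any one of Control_captopril 1, Control_captopril 2, GN_water 1 or GN_water 3, and in 6 without Control_captopril 3. No gene of the fat list (10 tested) or of the liver and pancreas list (7 tested) passed. The fat hormone Adipoq varied within groups, at 8.61, 13.8 and 0.198 CPM in GN_water and 12.2, 5.2 and 17.3 CPM in those labelled Control_captopril.

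The parallel comparison of GN_captopril with Control_water, whose libraries carry Y-linked RNA and almost no Xist, shares no library with the one described. There 1031 genes (7.05%) were higher and 734 (5.02%) lower, and 738 were higher and 252 lower in both comparisons. The difference between both comparisons passed the threshold for 488 genes (3.34%) in the positive direction and 464 (3.17%) in the negative. These counts moved with single libraries, to 217 positive without GN_water 3 and 715 without Control_water 1, and to 239 negative without Control_water 2 and 756 without Control_water 1. Marker type is the same within each comparison, and a disease effect equal in both cancels from the difference. What is left sets water against captopril, which cannot be told apart from a disease effect that differs by marker type. Nor can it be told apart from collection time, which the labels do not give. Of 19 clock genes, the difference passed for 3 in the positive direction and 11 in the negative.

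On a panel of 42 genes of immune, fibrosis, injury, metabolic and nephron roles, 26 were higher, 9 lower and 7 not past the threshold in GN_water against Control_captopril, and 22 passed in the parallel comparison. The difference itself passed for 12 of them. Among matrix genes Col1a1 changed by 1.89 ± 0.12 here and by 0.35 ± 0.12 there, a difference of 1.54 ± 0.17 (adjusted p = 0.000533, edgeR). Col3a1 and Acta2 differed in the same direction (1.21 ± 0.22 and 0.87 ± 0.13), and so did Vcam1 (0.83 ± 0.15). Among injury genes Lcn2 changed by 3.78 ± 0.29 here and 0.42 ± 0.30 there, a difference of 3.36 ± 0.42 (adjusted p = 0.00104, edgeR). Havcr1 and Spp1 passed as well (1.77 ± 0.46 and 0.56 ± 0.12). The call for Spp1 was lost without GN_water 1 or GN_water 3, and that for Havcr1 without most of the single libraries.

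Metabolic differences pointed both ways. Pck1 changed by -1.98 ± 0.19 here and 0.20 ± 0.18 there, a difference of -2.19 ± 0.26 (adjusted p = 0.000735, edgeR), and Cpt1a, Ppara and Hnf4a differed in the same direction (-0.80 ± 0.09, -0.78 ± 0.15 and -0.31 ± 0.09). G6pc went the other way, with -0.24 ± 0.10 here and -0.81 ± 0.10 there (0.57 ± 0.14). The calls for Hnf4a and G6pc were lost when single libraries were left out. For Lyz2, Adgre1, Cd3e and C3 the difference did not pass, with 1.03 ± 0.42, 0.87 ± 0.42, 0.81 ± 0.40 and 0.68 ± 0.66 on the log2 scale, which does not show that the changes were alike. Of the 26 macrophage genes, 23 rose in the parallel comparison, and the difference passed for 1. Of the 13 fibrillar and associated collagens 4 rose there, and the difference passed for 7.

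**Figure D5:**
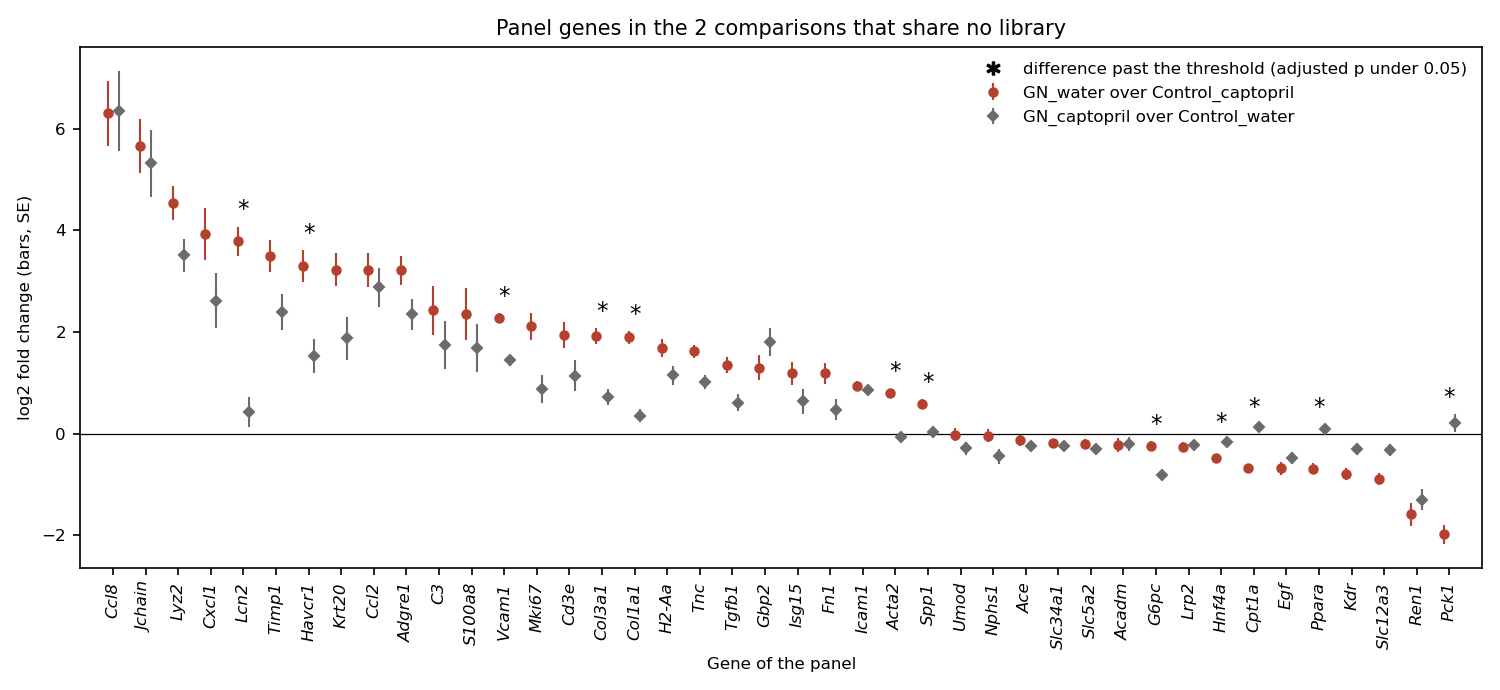
Log2 fold changes with SE of 42 panel genes in GN_water over Control_captopril (red circles) and in GN_captopril over Control_water (grey diamonds); an asterisk marks a difference between both that passed the threshold. Genes run along the horizontal axis; Col1a1 and Lcn2 lie higher in GN_water over Control_captopril, and Pck1 lower.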

How the data were processed

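Stranded mRNA libraries of kidney cortex were grouped by their labels. The authors deposited expected counts, estimated reads per gene symbol, and an RPKM table that was not used. Bowtie2, Partek and the mm10 genome are named per the submitters' processing notes, while the sources used here do not give versions, roles or annotation. Of the deposited estimated counts 13.1% were not whole, and all were rounded, so paralogs may share reads. Of 24452 symbols, 5604 had no count, and filterByExpr (minimum count 10, minimum total 15) kept 14618. edgeR 4.0.16 (R 4.3.3, limma 3.58.1) fitted all 12 libraries with TMM scaling and 1 mean per group by quasi-likelihood, with Benjamini-Hochberg adjustment over all genes tested at 0.05. The difference between both comparisons was tested in the same fit. Unless stated, values after a gene are log2 fold changes ± SE of GN_water over Control_captopril, and CPM are TMM-adjusted. The test was run on simulated counts with known changes first.

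Members and gene lists were chosen with earlier results of these data known. Named were the 12 genes with the largest rises and the 12 with the largest falls (mean of at least 1 CPM, no overlap), the 4 smallest adjusted p past the threshold in each list (otherwise 2 members by level) and the panel of 42 genes. Other genes were named after their values were seen. Some genes that these rules name are not reported here. Coordinates and sequences came from RefSeq GRCm38 (14576 tested symbols matched), which need not be the authors' annotation. Alternatives were DESeq2 1.42.0, its size factors in edgeR, no filter, only the 6 libraries, a replicate block and each library left out. Same-numbered libraries of the 2 groups did not deviate together. Python 3.11.15, pandas 2.3.3 and matplotlib 3.10.9 made tables and figures.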

Additional observations from a re-analysis of the deposited data

Results flagged for a closer look

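For 12 genes of the panel, the change in GN_water against Control_captopril differed from that in GN_captopril against Control_water by a test of the difference in edgeR. Matrix and vascular genes had positive differences on the log2 scale, of 1.539 for Col1a1 (1.89 here and 0.35 there), 1.214 for Col3a1 (1.93 and 0.71), 0.8656 for Acta2 (0.80 and -0.07) and 0.8293 for Vcam1 (2.27 and 1.44). Among injury genes the difference was 3.363 for Lcn2 (3.78 and 0.42), 1.766 for Havcr1 (3.30 and 1.53) and 0.5619 for Spp1 (0.59 and 0.03). Metabolic genes gave -2.187 for Pck1 (-1.98 and 0.20), -0.803 for Cpt1a (-0.67 and 0.13), -0.7783 for Ppara (-0.69 and 0.09), -0.3128 for Hnf4a (-0.48 and -0.17) and 0.5705 for G6pc (-0.24 and -0.81). The calls for Havcr1, Spp1, Hnf4a and G6pc were lost when some single libraries were left out. These differences set water against captopril by label, which cannot be told apart from a disease effect that differs by sex-linked marker type. Collection time, which the labels do not give, cannot be told apart from them either.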

How the results depend on the processing

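Counts of genes past the threshold in GN_water against Control_captopril (2476 higher, 1930 lower) stayed within 1.5 times under every alternative run: DESeq2 gave 2250 and 2173, size factors in edgeR 2371 and 2176, no filter 2465 and 1885, and the 6 libraries alone 2676 and 2414. With 1 library left out they were 1744 to 2152 higher and 1317 to 2199 lower. No result reversed. The replicate block gave 2542 higher and 2084 lower genes here, and 575 and 556 for the difference between both comparisons. The numbers share no stated animal or batch, and deviations of same-numbered libraries correlated at 0.113, -0.00278 and -0.106, so the block is no pairing. For that difference DESeq2 called 567 positive and 726 negative genes, against 488 and 464, and leaving out 1 library gave 217 to 715 positive and 239 to 756 negative. Of the named genes' values under the alternatives, 2624 kept their side of the threshold, 48 lost the call and 8 gained it. The gains fell on Acadm, Slc34a1, Ace, G6pc, Slc5a2, Lpl and Cela1. Leaving out a library also lowers the degrees of freedom. With 3 libraries a group, genes that vary between libraries, such as Marco (SE 1.57) and Saa3 (SE 1.43), have wide errors, and at these depths most neutrophil genes were too low to test.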

Other observations

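Lysosomal genes rose in 9 of 17 and fell in 0, with a median log2 fold change of 0.19. Ctsk, a collagen-cutting cathepsin of macrophages and osteoclasts, was at 15.4, 14.5 and 14.6 CPM in GN_water, against 4.08, 6.31 and 5.31 CPM in the libraries labelled Control_captopril, a rise of 1.51 ± 0.15. Hexa, which breaks down gangliosides, rose by 0.66 ± 0.10, and Ctsc, which activates granule proteases, by 1.09 ± 0.14. Of 14 genes known to differ between male and female mouse kidney, 2 rose and 2 fell. These shares are near those of all genes tested, 16.9% higher and 13.2% lower. Gusb, a lysosomal enzyme that androgen raises in mouse kidney, was at 51.1, 58.9 and 53.4 CPM in GN_water and 33, 38.3 and 39.1 CPM in those labelled Control_captopril. Cyp4a14, an omega-hydroxylase of fatty acids, was at 505, 526 and 492 CPM in GN_water and 1758, 955 and 1099 CPM in those labelled Control_captopril, a fall whose call was lost when some libraries were left out.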
